A study of Mus musculus with 45 samples.

Results

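The transcripts described here encode 8 mouse aldehyde dehydrogenases, Aldh1a1, Aldh1a7, Aldh1b1, Aldh2, Aldh3a2, Aldh9a1, Aldh7a1 and Aldh1l1. They were taken by name from a table of 24972 genes, and all 8 were found and passed the filter on low values. RNA was sequenced in bulk from liver tissue lysates of wild-type mice on the Lieber-DeCarli liquid diet, a feeding model of alcohol-associated liver disease, and levels are in TPM, a measure of transcript abundance scaled by transcript length and library total, as the authors deposited them. Peak libraries followed 6 weeks of ethanol or control diet, and ethanol-fed mice were then returned to control diet for 3 days (early resolution) or 2 weeks (late resolution). The 45 libraries formed 12 groups. At peak there were 4 male-labelled and 4 female-labelled ethanol libraries and 4 and 4 control libraries, at early resolution 4 and 3 ethanol libraries and 4 and 4 control libraries, and at late resolution 3 and 3 ethanol libraries and 4 and 4 control libraries. The sources used here do not give strain, age or the schedule of control-labelled mice in the resolution stages. Nothing in the labels says that libraries of a group came from separate mice, so the p-values rest on the spread among these libraries, which may be technical, and bulk RNA cannot tell fewer cells of a type from less RNA per cell.

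The sex labels did not match the transcripts of the sex chromosomes, which followed the diet label instead. All 21 ethanol-labelled libraries carried Xist, the RNA of the inactive X chromosome of females, at 13.7 to 51.8 TPM, with the Y-linked Eif2s3y at no more than 0.039 TPM. Of the 24 control-labelled libraries, 23 had Eif2s3y at 7.83 to 12.7 TPM and Xist at no more than 0.349 TPM, and the remaining one, late control female 1, had 39.5 TPM of Xist with Eif2s3y listed at 0. In all, 22 libraries (11 labelled female and 11 labelled male) went against their sex label. The ethanol label and female transcripts therefore cannot be told apart in any comparison by diet label. Comparisons by sex label set libraries with the same sex-chromosome transcripts against each other, late control female 1 aside. Which label is in error, or whether diet and sex labels were exchanged, was not tested. Both comparisons are given as labelled. Genes known to differ between the sexes in mouse liver moved the same way. All 20 female-biased genes tested were called higher (as defined below) in ethanol-labelled livers at each stage. Of all genes, 17.3%, 14.3% and 8.82% were called higher at peak, early and late resolution. Of 19 male-biased genes 18, 19 and 18 were called lower at those stages, beside 9.81%, 2.46% and 3.98% of all genes. The gene lists were chosen with earlier results of these data known. Major urinary protein transcripts, abundant in male liver, made up 0.177 to 1.02% of TPM in ethanol-labelled libraries and 0.221 to 14.5% in control-labelled libraries (medians 0.321% and 9.82%), the lowest control being late control female 1. Hepatocyte markers (7 of 8 in the table, none at 0 throughout) summed to 141315 to 210406 TPM in ethanol-labelled and 86194 to 186958 TPM in control-labelled libraries.

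Aldehyde dehydrogenases oxidise aldehydes to acids with NAD or NADP. When the liver burns ethanol, alcohol dehydrogenases, Cyp2e1 and catalase form acetaldehyde, and mitochondrial Aldh2 oxidises most of it to acetate. The other members handle retinal, aldehydes released from lipids, and intermediates of lysine, carnitine and folate metabolism.

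Aldh1a1, a cytosolic enzyme that makes retinoic acid from retinal and also accepts acetaldehyde and lipid aldehydes, and Aldh1a7, its close rodent relative, are neighbours. In GENCODE M21 (GRCm38) Aldh1a1 lies on the plus strand at chr19:20492715-20643465 and Aldh1a7 on the minus strand at chr19:20692953-20727562, which leaves 49488 bases between them. Their longest open reading frames, 1506 bases each, were 91.6% identical, and 151 of 1457 windows of 50 bases (10.4%) were shared, so part of their reads could have been split between them by the authors' counting. The 250 bases before each start (RefSeq, GRCm38.p6, chr19:20601718-20601967 on the plus strand and chr19:20727557-20727806 on the minus strand) are shown because both genes were lower in ethanol-labelled livers at all 3 stages, and capitals mark their longest shared run, 65 bases that end 30 bases before the start in both. RefSeq lists 2 starts for Aldh1a1. The window shown was chosen for the shared run, and the window of the other start shared no run longer than 8 bases with that of Aldh1a7.
Aldh1a1: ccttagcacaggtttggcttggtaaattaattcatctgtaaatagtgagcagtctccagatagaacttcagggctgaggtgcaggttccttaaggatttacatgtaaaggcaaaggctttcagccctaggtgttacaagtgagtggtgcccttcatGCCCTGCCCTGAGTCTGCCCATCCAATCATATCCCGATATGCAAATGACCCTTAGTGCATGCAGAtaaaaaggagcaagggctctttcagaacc
Aldh1a7: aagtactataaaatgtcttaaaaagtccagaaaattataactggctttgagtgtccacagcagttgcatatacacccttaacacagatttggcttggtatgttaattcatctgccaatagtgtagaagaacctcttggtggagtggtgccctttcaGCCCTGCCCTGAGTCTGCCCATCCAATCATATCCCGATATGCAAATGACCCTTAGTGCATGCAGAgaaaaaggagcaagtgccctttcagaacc
The windows were 70% identical over 250 bases. The shared run holds the letters CCAAT, 72 to 68 bases before the start, and ATGCAAAT, 56 to 49 bases before it. Searched on both strands, CCAAT was present in 33.8% and ATGCAAAT in 1.6% of 32851 promoter windows of this length. CCAAT was also in the windows of Aldh3a2, Aldh9a1 and Aldh1l1. TATAAA (12.4% of windows) was in the Aldh1a7 window, AGGTCA (14% of windows) in the Aldh1l1 window, and TTCNNNGAA (7% of windows) in the Aldh9a1 window. The Aldh1b1 window held none of these 5 strings. Promoter entries matched 6 of the 8 members.

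The other genes are spread over the genome. By the same annotation, Aldh1b1, a mitochondrial enzyme for acetaldehyde and retinal, is at chr4:45799022-45804604, and Aldh2 is at chr5:121566027-121593824. Aldh3a2, the microsomal fatty aldehyde dehydrogenase, is at chr11:61223417-61267464, and Aldh9a1, which works in carnitine synthesis, is at chr1:167349991-167368532. Aldh7a1, which breaks down the semialdehyde formed from lysine and oxidises betaine aldehyde, is on chromosome 18, and Aldh1l1, the cytosolic 10-formyltetrahydrofolate dehydrogenase, is at chr6:90486427-90600203.

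Aldh1a1 was the most abundant member in TPM, a scale that divides by transcript length, with a mean of 1062 TPM over the 45 libraries. Aldh1l1 averaged 710.3 TPM and Aldh2 680.2 TPM, followed by Aldh7a1 at 265 TPM, Aldh3a2 at 239.8 TPM, Aldh1a7 at 187 TPM, Aldh9a1 at 129.6 TPM and Aldh1b1 at 49.1 TPM. Aldh1a1 was also the most variable between groups. Its group means ran from 456 TPM in early ethanol female libraries to 1859 TPM in peak control female libraries, a ratio of 4.08, and single libraries ran from 308 TPM (early ethanol female 1) to 2255 TPM (peak control female 4). The ratio of the highest to the lowest group mean was 3.27 for Aldh1a7, 2.75 for Aldh1b1, 2.36 for Aldh3a2, 2.11 for Aldh7a1, 1.63 for Aldh9a1, 1.57 for Aldh1l1 and 1.48 for Aldh2. When the 12 groups were put in order of their means, the ranges of neighbouring groups overlapped in all 11 neighbouring pairs for each member.

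**Figure D1:**
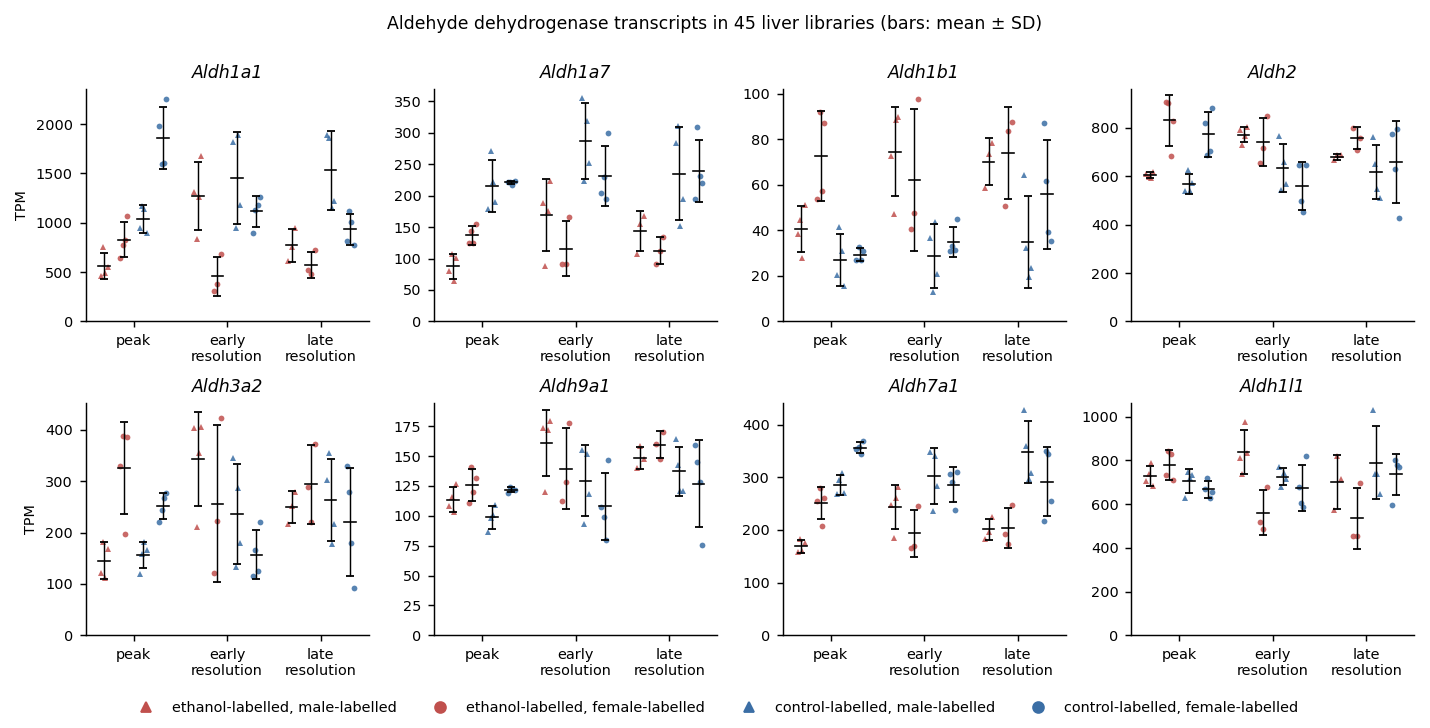
TPM of each of the 8 transcripts in each library, by stage, with ethanol-labelled libraries in red left of control-labelled libraries in blue, triangles for male-labelled and circles for female-labelled libraries, and bars for the mean and SD of each group of 3 or 4. Aldh1a1, Aldh1a7 and Aldh7a1 sit lower in most red groups than in the blue groups of the same stage and Aldh1b1 sits higher, while the red and blue groups of Aldh2, Aldh9a1 and Aldh1l1 overlap widely.

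The diet-label comparison asks how livers of ethanol-labelled mice differed from those of control-labelled mice at each stage, averaged over the sex labels. At peak, the cytosolic pair Aldh1a1 and Aldh1a7 fell to about the same extent, by 1.04 and 1.0 on the log2 scale, the lysine enzyme Aldh7a1 fell by 0.64, and Aldh1b1 rose by 0.94. Aldh2, the main acetaldehyde dehydrogenase, did not pass the test, nor did Aldh3a2, Aldh9a1 or Aldh1l1. These 4 calls in 8 members (1 higher, 3 lower) stand beside 27.1% of the 11244 genes tested that were called at this stage, 17.3% higher and 9.81% lower. A gene was called at a Benjamini-Hochberg adjusted p under 0.05 over all genes tested, by limma on log2(TPM + 0.5).

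Aldh1a1 had 458, 756, 486 and 557 TPM in male-labelled and 642, 771, 828 and 1067 TPM in female-labelled ethanol libraries at peak. The control libraries had 945, 1168, 1144 and 897 TPM in the male-labelled and 1981, 1599, 1603 and 2255 TPM in the female-labelled group. Within each sex label all 4 ethanol libraries lay below all 4 controls, although the highest female-labelled ethanol value was above 2 male-labelled controls. Across both sex labels the means were 696 ± 202 TPM in ethanol-labelled and 1449 ± 494 TPM in control-labelled livers (SD, n = 8 each), and the log2 difference was -1.04 ± 0.17 (SE), a ratio of 0.487, with an adjusted p = 1.5e-05.

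Aldh1a7 had 79.5, 107, 63.9 and 101 TPM in male-labelled and 124, 143, 125 and 154 TPM in female-labelled ethanol libraries, against 178, 270.4, 222 and 189 TPM and 221, 222, 217 and 223 TPM in the control libraries with the same labels. All 8 ethanol-labelled libraries were below all 8 control-labelled ones. The log2 difference was -1.0 ± 0.17 (SE), with an adjusted p = 3.1e-05. The summed TPM of Aldh1a1 and Aldh1a7 gave -1.04 ± 0.17 (SE) with an adjusted p = 1.1e-05, although that sum too depends on how shared reads were divided, since TPM divides reads by transcript length and the annotated exons of the genes total 4937 and 2066 bases.

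Aldh7a1 had 158, 183, 159.6 and 174 TPM in male-labelled and 254, 279.8, 208 and 260.4 TPM in female-labelled ethanol libraries, against 268, 296, 308 and 271 TPM and 355, 357, 344 and 369 TPM in the controls. Within each sex label all 4 ethanol libraries were below all 4 controls. The log2 difference was -0.64 ± 0.11 (SE), a ratio of 0.644, with an adjusted p = 4.0e-05.

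Of the mitochondrial pair, Aldh1b1 had 38.6, 44.6, 27.7 and 51.2 TPM in male-labelled and 53.8, 92.1, 57.4 and 87.2 TPM in female-labelled ethanol libraries, against 20.5, 41.3, 30.8 and 15.7 TPM and 26.9, 32.6, 27.2 and 30.7 TPM in the controls. The female-labelled groups did not overlap and the male-labelled groups did. Its log2 difference was 0.94 ± 0.25 (SE), a ratio of 1.93, with an adjusted p = 0.0041. Aldh2 averaged 718 ± 139 TPM in ethanol-labelled and 671 ± 128 TPM in control-labelled livers (SD, n = 8 each), a log2 difference of 0.10 with a 95% interval of -0.12 to 0.31 and an adjusted p = 0.53. That interval leaves room for a difference in either direction, but not for one as large as that of Aldh1b1. The remaining 3 members had log2 differences of 0.10 (Aldh3a2), 0.12 (Aldh9a1) and 0.13 (Aldh1l1), each with an interval that included 0.

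The 4 calls held under median-of-ratios scaling, which takes out a shift shared by most genes, with -1.12 for Aldh1a1, -1.08 for Aldh1a7, -0.72 for Aldh7a1 and 0.86 for Aldh1b1. Under it 35.7% of genes were called, 42.1% of them higher, against 63.8% of the called genes on the deposited scale.

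Markers of other liver cells differed along with the diet label at peak, beside 17.3% of all genes called higher, and their part in these results was not tested. All 8 endothelial markers tested were higher, with sums of 101 to 226 TPM in male-labelled and 287 to 347 TPM in female-labelled ethanol libraries, against 65 to 173 TPM and 125 to 259.8 TPM in the controls. Of 8 stellate markers 7 were higher, with sums of 201 to 341 TPM and 296 to 505 TPM in the ethanol libraries, against 119 to 165 TPM and 83.4 to 306 TPM in the controls. No marker of either list was at 0 in every library.

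When the 22 libraries that went against their sex label were left out, the comparison set 4 female-labelled ethanol against 4 male-labelled control libraries at peak. Each such value is the diet-label difference less the sex-label difference described below, so it is not a check of the diet label alone. In that comparison 4 members were again called, but not the same 4. Aldh1b1 (1.46, adjusted p = 0.022) and Aldh1a7 (-0.64, adjusted p = 0.043) kept their direction and call. Aldh2 (0.54, adjusted p = 0.011) and Aldh3a2 (1.02, adjusted p = 0.031) were now called as higher, while Aldh1a1 had -0.34 (adjusted p = 0.35) and Aldh7a1 -0.19 (adjusted p = 0.42). In that subset 29.5% of genes were called, and 91.3% of those were higher, against 63.8% with all libraries.

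At early resolution, 3 days after the return to control diet, the same 3 transcripts were lower in ethanol-labelled livers and Aldh1b1 was higher, and Aldh2 was called as higher as well. These 5 calls in 8 stand beside 16.7% of all genes called, 14.3% higher and 2.46% lower. Aldh1a1 ranged from 308 to 1675 TPM with a median of 835 TPM in 7 ethanol-labelled livers and from 893 to 1885 TPM with a median of 1179.7 TPM in 8 control-labelled livers. The low values were those of the female-labelled ethanol libraries, at 308, 381 and 679 TPM, whereas the male-labelled ones had 1308, 835, 1265 and 1675 TPM and overlapped with the male-labelled controls at 1817, 942, 1885 and 1179 TPM. The log2 difference averaged over the sex labels was -0.77 ± 0.18 (SE), with an adjusted p = 0.0021, and within the female-labelled and male-labelled libraries alone it was -1.36 (adjusted p = 0.00063) and -0.18 (adjusted p = 0.69), where 3.92% and 8.39% of genes were called.

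Aldh1a7 had 188, 87.7, 176 and 223 TPM in male-labelled and 90.5, 90.5 and 166 TPM in female-labelled ethanol libraries at early resolution, against 355, 223, 319 and 252 TPM and 204, 229.5, 194 and 299.6 TPM in the controls. Within a sex label no ethanol library reached the lowest control. Its log2 difference was -0.93 ± 0.18 (SE), with an adjusted p = 0.00026. Aldh7a1 averaged 222 ± 47.4 TPM in ethanol-labelled (n = 7) and 294 ± 41.8 TPM in control-labelled livers (SD, n = 8), a log2 difference of -0.45 ± 0.11 (SE) with an adjusted p = 0.006.

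Aldh1b1 had 72.8, 47.3, 88.2 and 89.8 TPM in male-labelled and 40.6, 47.4 and 97.7 TPM in female-labelled ethanol libraries at early resolution, against 36.5, 13, 43.7 and 20.9 TPM and 30.8, 32.9, 31.5 and 44.7 TPM in the controls. Within the male label the ethanol and control values did not overlap, and its log2 difference over both labels was 1.10 ± 0.26 (SE), a ratio of 2.14, with an adjusted p = 0.0027. Aldh2 had 792, 730.3, 765 and 802 TPM in male-labelled and 655, 716 and 849 TPM in female-labelled ethanol libraries, against 765, 541, 659.9 and 569.7 TPM and 644, 499, 452 and 646 TPM in the controls. Its log2 difference was 0.35 ± 0.11 (SE), with an adjusted p = 0.022. That call depended on the scaling and on single libraries. The median of all genes was itself 0.13 higher in ethanol-labelled livers at this stage. After median-of-ratios scaling 16.7% of genes were called, 45.5% of them higher, against 85.3% on the deposited scale. There Aldh2 had 0.17 (adjusted p = 0.24) and 1 member was called higher and 3 lower. The Aldh2 call was also lost without early control female 3 (0.30, adjusted p = 0.06), early control male 2 (0.32, adjusted p = 0.057), early control male 4 (0.33, adjusted p = 0.051) or early ethanol female 3 (0.30, adjusted p = 0.083). Aldh3a2 (0.58, adjusted p = 0.1) and Aldh9a1 (0.35, adjusted p = 0.068) had differences of the same sign that were not called. Without the 22 libraries, which left 3 female-labelled ethanol and 4 male-labelled control livers, 2 members were called beside 6.36% of genes, Aldh1a1 (-1.70, adjusted p = 0.0032) and Aldh1a7 (-1.35, adjusted p = 0.004). There Aldh7a1 had -0.65 (adjusted p = 0.056), Aldh1b1 1.14 (adjusted p = 0.17) and Aldh2 0.23 (adjusted p = 0.43).

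At late resolution, 2 weeks after the change of diet, Aldh1a1, Aldh1a7, Aldh7a1 and Aldh1l1 were lower and Aldh1b1 higher in ethanol-labelled livers. The 5 calls stand beside 12.8% of genes called, 8.82% higher and 3.98% lower. Aldh1a1 had 612, 759 and 946 TPM in male-labelled and 517, 481 and 719.8 TPM in female-labelled ethanol libraries, against 1892, 1858, 1149.9 and 1223 TPM and 820.2, 1119, 1012 and 777 TPM in the controls. All 6 ethanol libraries were below every control with the same sex label, and the log2 difference was -0.84 ± 0.18 (SE), with an adjusted p = 0.0017. Aldh1a7 averaged 128 ± 29.6 TPM in 6 ethanol-labelled livers and 237 ± 58.5 TPM in 8 control-labelled livers (SD), with a log2 difference of -0.88 ± 0.18 (SE) and an adjusted p = 0.0011.

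Aldh7a1 had 184, 195 and 224 TPM in male-labelled and 193, 173 and 247 TPM in female-labelled ethanol libraries at late resolution, against 427, 359.8, 297 and 309 TPM and 218, 349.5, 344 and 254 TPM in the controls. The male-labelled groups did not overlap. The female-labelled ones did, and the single control below 254 TPM was late control female 1. The log2 difference was -0.64 ± 0.12 (SE), with an adjusted p = 0.00025. Aldh1b1 averaged 72.1 ± 14.5 TPM in ethanol-labelled and 45.3 ± 23.4 TPM in control-labelled livers (SD, n = 6 and 8), with a log2 difference of 0.80 ± 0.27 (SE) and an adjusted p = 0.041, and its highest control, 87.2 TPM, was late control female 1. Aldh1l1 averaged 618 ± 149 TPM in ethanol-labelled and 763 ± 128 TPM in control-labelled livers, with a log2 difference of -0.32 ± 0.11 (SE) and an adjusted p = 0.043, and its lowest control, 597 TPM, was again late control female 1.

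The late calls of Aldh1b1 and Aldh1l1 were each lost on leaving out any of 10 single libraries out of 14, with adjusted p up to 0.1 and 0.15. Without late control female 1 they became clearer, at 0.93 (adjusted p = 0.013) for Aldh1b1 and -0.37 (adjusted p = 0.014) for Aldh1l1. All 5 calls held under median-of-ratios scaling, where 21.1% of genes were called and 40.6% of those were higher, against 68.9% on the deposited scale. Leaving out the 22 libraries left 3 female-labelled ethanol livers and 5 control livers, all male-labelled but late control female 1. There Aldh1a1 (-1.23, adjusted p = 0.017), Aldh1a7 (-0.98, adjusted p = 0.019) and Aldh7a1 (-0.64, adjusted p = 0.041) were called beside 9.96% of genes (40.1% of them higher, against 68.9% with all libraries), while Aldh1b1 had 0.90 (adjusted p = 0.19) and Aldh1l1 -0.49 (adjusted p = 0.061). Some immune cell markers were higher in ethanol-labelled livers in the resolution stages, beside 14.3% and 8.82% of all genes called higher at early and late resolution. Of 9 Kupffer markers 7 were higher at early and 5 at late resolution, with sums of 372 to 595 TPM and 394 to 637 TPM over all ethanol-labelled libraries, against 136 to 439 TPM and 173 to 684 TPM over all control-labelled ones. Of 6 lymphocyte markers tested 4 and 6 were higher, while of 4 neutrophil markers tested 1 was higher at early and 0 at late resolution, with medians of 1.10 and -0.53. Stellate sums at early resolution were 301 to 351 TPM in male-labelled and 315 to 453 TPM in female-labelled ethanol libraries. The controls had 136 to 216 TPM and 147 to 271 TPM. Kupffer sums at peak were 188 to 396 TPM in male-labelled and 376 to 511 TPM in female-labelled ethanol libraries. There the controls had 241 to 250 TPM and 203 to 394 TPM. The part of these lists in the results above was not tested.

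**Figure D2:**
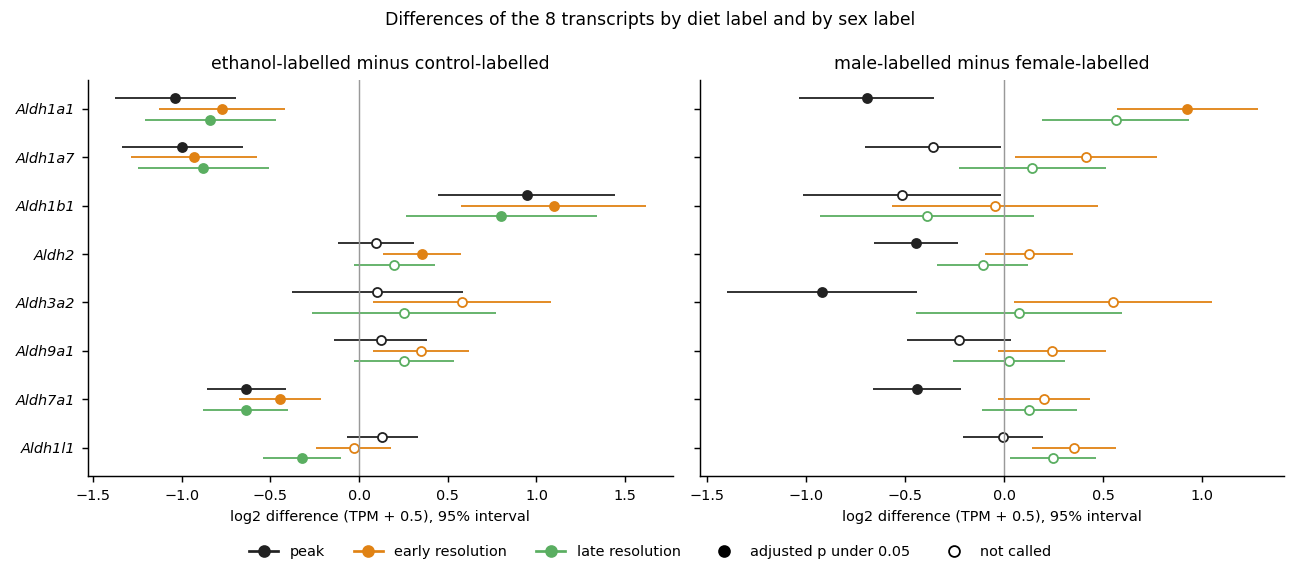
Log2 differences of the 8 transcripts with 95% intervals, ethanol-labelled minus control-labelled on the left and male-labelled minus female-labelled on the right, at peak (black), early (orange) and late resolution (green), with filled points for an adjusted p under 0.05. Aldh1a1 and Aldh1a7 lie between -1.04 and -0.77 at every stage on the left and Aldh1b1 between 0.80 and 1.10, while on the right Aldh1a1 is at -0.69 at peak, 0.93 at early and 0.56 at late resolution.

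Whether the diet-label differences changed with time was tested directly. From peak to early resolution no member was called (0 of 8 by limma, beside 0% of all genes, with 0 members at an unadjusted p under 0.05), and from peak to late resolution again 0 of 8 were called beside 3.98% of genes, with 1 member at an unadjusted p under 0.05. The shifts were 0.27 with an interval of -0.23 to 0.76 for Aldh1a1, 0.07 with -0.43 to 0.56 for Aldh1a7 and 0.15 with -0.57 to 0.87 for Aldh1b1 at early resolution. At late resolution they were 0.20 with -0.31 to 0.70 for Aldh1a1, 0.12 with -0.39 to 0.62 for Aldh1a7 and -0.14 with -0.88 to 0.59 for Aldh1b1, so with all libraries the intervals allow a partial return as well as a persistence of the full difference. Without the 22 libraries the groups compared were female-labelled ethanol and male-labelled control, late control female 1 aside. A shift in that subset therefore also subtracts the change of the sex-label difference, which was positive for all 8 members with all libraries. It is not a check of the diet-label shift alone. There Aldh1a1 had -1.36 ± 0.41 (SE, adjusted p = 0.13) at early and -0.89 ± 0.40 (SE, adjusted p = 0.13) at late resolution. Aldh1a7 had -0.71 ± 0.34 (SE, adjusted p = 0.27) and -0.34 ± 0.33 (SE, adjusted p = 0.49). Aldh1b1 had -0.32 ± 0.66 (SE, adjusted p = 0.82) and -0.56 ± 0.65 (SE, adjusted p = 0.57). In that subset the shifts of all 8 members were negative at both stages and none was called. Of 11244 genes tested, 64 were called at early and 1930 at late resolution, and 12.5% and 3.6% of those were higher. With all libraries Aldh1l1 had the single unadjusted p under 0.05, a shift of -0.45 ± 0.15 (SE) with an adjusted p = 0.065 at late resolution. The number of members called was 1 without late control female 1, late ethanol female 3 or peak control male 4.

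The diet-label difference was also compared between the sex labels, as male-labelled minus female-labelled. No member was called at peak (0.16% of genes called), early resolution (0.00889%) or late resolution (0.0445%), with 0, 2 and 0 members at an unadjusted p under 0.05. The larger of the 2 at early resolution was Aldh1a1, whose difference was 1.18 ± 0.35 (SE) less negative in male-labelled than in female-labelled livers, with an adjusted p = 0.79. The second was Aldh1l1 at 0.47 ± 0.21 (SE), with an adjusted p near 1.

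The comparison of male-labelled with female-labelled libraries was made as labelled, although both sides had the same sex-chromosome transcripts within a diet label. At peak 4 members were lower in male-labelled livers, Aldh1a1, Aldh2, Aldh3a2 and Aldh7a1, and none was higher. This was close to the general pattern, since 51% of all genes were called, 46.7% lower and 4.26% higher, and the median gene was 0.29 lower on the log2 scale. Aldh3a2 differed most. It had 120.4, 182, 111 and 169 TPM in male-labelled and 330.4, 387, 197 and 387 TPM in female-labelled ethanol libraries, and 120.2, 158, 181 and 165 TPM and 219.7, 245, 267 and 277 TPM in the controls. The 8 male-labelled values were all below the 8 female-labelled ones, and the log2 difference was -0.92 ± 0.24 (SE), with an adjusted p = 0.0022. Within ethanol-labelled livers alone it was -1.14 (adjusted p = 0.0065) and within control-labelled livers -0.70 (adjusted p = 0.24), where 49.4% and 2.9% of genes were called, and the interaction that compares them was not called for any member.

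Aldh2 had 611, 598, 594 and 616 TPM in male-labelled and 908, 901, 683 and 829 TPM in female-labelled ethanol libraries at peak, and 538, 626, 539.7 and 571 TPM and 821, 687, 706 and 882 TPM in the controls. These values too were lower in all 8 male-labelled than in all 8 female-labelled livers, with a log2 difference of -0.44 ± 0.10 (SE) and an adjusted p = 0.001. Aldh1a1 had -0.69 ± 0.17 (SE, adjusted p = 0.0013) and Aldh7a1 -0.44 ± 0.11 (SE, adjusted p = 0.0016). Relative to the shift of all genes these differences were smaller. After median-of-ratios scaling, where 31.6% of genes were called and 51.1% of the calls were higher (8.4% on the deposited scale), Aldh3a2 kept a call at -0.57 (adjusted p = 0.011) and Aldh1l1 became higher at 0.34 (adjusted p = 0.017). Under the same scaling Aldh1a1 had -0.34 (adjusted p = 0.064), Aldh2 -0.09 (adjusted p = 0.48) and Aldh7a1 -0.09 (adjusted p = 0.49).

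Zone and cell markers were also counted by sex label at peak, and their part was not tested. Beside them 46.7% of all genes were called lower and 4.26% higher, with a median of -0.29. Of 9 markers of pericentral hepatocytes, the cells around the central vein that carry most ethanol-oxidising Cyp2e1, 6 were lower in male-labelled livers. Their summed TPM was 10449 to 11418 in male-labelled and 11196 to 14019 in female-labelled ethanol libraries, and 11046 to 14675 and 14776 to 16488 in the controls. Of 8 endothelial markers 7 were lower, within the sums given above, and none of either list was at 0 in every library. Of 9 periportal markers 5 were lower and 2 higher. All 4 neutrophil markers tested were higher in male-labelled livers, with sums of 102 to 154 TPM in male-labelled and 6.58 to 43.5 TPM in female-labelled ethanol libraries, and 29 to 74.8 TPM and 3.91 to 66.7 TPM in the controls.

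At early resolution Aldh1a1 was the single member called by sex label and was higher in male-labelled livers, by 0.93 ± 0.18 (SE) with an adjusted p = 0.0068, beside 0.596% of genes. In a fit to the libraries of that stage alone the call was lost (0.93, adjusted p = 0.11). After median-of-ratios scaling it was 0.90 (adjusted p = 0.001), beside 1.84% of genes. The difference was largest among ethanol-labelled livers, where it was 1.52 ± 0.26 (SE, adjusted p = 0.0023), against 0.33 ± 0.24 (SE, adjusted p = 0.7) among control-labelled livers, where 0.178% and 0.151% of genes were called. That contrast is the interaction reported above, which was not called. At late resolution 0 members were called by limma beside 3.25% of genes, with 2 at an unadjusted p under 0.05, Aldh1a1 at 0.56 ± 0.18 (SE, adjusted p = 0.07) and Aldh1l1 at 0.25 ± 0.11 (SE, adjusted p = 0.16). After median-of-ratios scaling Aldh1a1 was called at 0.51 (adjusted p = 0.036), beside 9.55% of genes.

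The sex-label difference therefore changed after peak for several members, in each case towards higher levels in male-labelled livers. At early resolution minus peak, 5 members were called, beside 31.9% of genes (29.6% higher), and at late resolution minus peak 3 were called, beside 36.5% (34.6% higher). The change of Aldh1a1 was 1.62 ± 0.24 (SE) at early resolution, with an adjusted p = 4.8e-05, then 1.26 ± 0.25 (SE) at late resolution, with an adjusted p = 0.00084. That of Aldh3a2 was 1.47 ± 0.34 (SE) with an adjusted p = 0.0029, then 1.0 ± 0.35 (SE) with an adjusted p = 0.026. Aldh7a1 had 0.64 ± 0.16 (SE) with an adjusted p = 0.004, then 0.57 ± 0.16 (SE) with an adjusted p = 0.0079. At early resolution Aldh1a7 (0.77 ± 0.24, SE, adjusted p = 0.018) and Aldh2 (0.57 ± 0.15, SE, adjusted p = 0.0067) were also called. The median of all genes moved by 0.32 and 0.34 in the same direction, and 92.8% and 94.8% of called genes were higher (55.5% and 56.1% after median-of-ratios scaling). Once that was removed by median-of-ratios scaling, 2 members stayed called at early resolution (16.5% of genes), Aldh1a1 (1.24, adjusted p = 0.00016) and Aldh3a2 (1.09, adjusted p = 0.0031), and 1 at late resolution beside 20.2%, Aldh1a1 (0.85, adjusted p = 0.0063). Without early ethanol female 1 the change of Aldh1a7 was 0.70 (adjusted p = 0.054), and the late change of Aldh3a2 was 0.81 (adjusted p = 0.054) without late control female 4 and 0.90 (adjusted p = 0.059) without late ethanol female 2.

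The group means of the summed TPM of the 8 transcripts lay between 2453 TPM in peak ethanol male libraries and 4281 TPM in peak control female libraries, and the make-up of that sum differed as well. Aldh1a1 made up 22.8 ± 3.43% and 24.6 ± 4.32% of the summed TPM of the 8 transcripts in male-labelled and female-labelled ethanol libraries at peak, and 33.5 ± 2.11% and 43.2 ± 3.21% in the controls (SD, n = 4 each). The lowest share was in early ethanol female libraries, at 17.6 ± 2.63% (SD, n = 3), where Aldh2 reached 30.0 ± 3.83%. Aldh1a1 was 0.600 ± 0.175 times the level of Aldh2 there, against 2.05 ± 0.521 times in early control female libraries. Of the mitochondrial forms, Aldh2 was 15.7 ± 4.13 and 12 ± 3.41 times as high as Aldh1b1 in male-labelled and female-labelled ethanol libraries at peak, and 23.9 ± 9.67 and 26.6 ± 4.09 times in the controls. These ratios follow from the levels already given and were not tested.

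**Figure D3:**
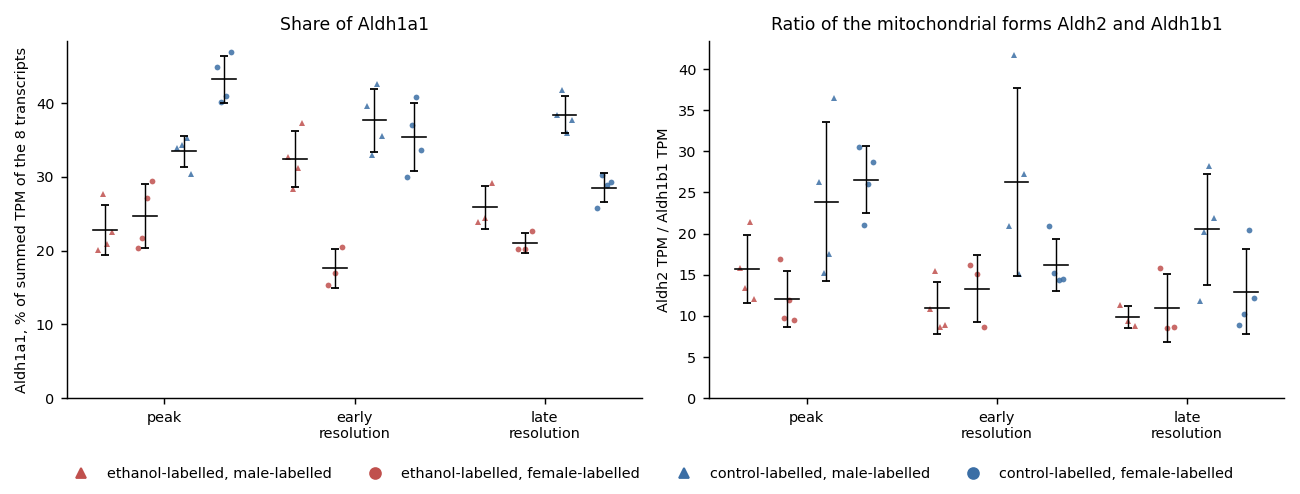
Share of Aldh1a1 in the summed TPM of the 8 transcripts (left, percent) and the ratio of Aldh2 to Aldh1b1 TPM (right) in each library, by stage, ethanol-labelled in red left of control-labelled in blue, triangles for male-labelled and circles for female-labelled libraries, with the mean and SD of each group. At peak the red groups average 22.8% and 24.6% for Aldh1a1, below both blue groups at 33.5% and 43.2%.

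The rest of the family was looked at for comparison. Of 13 other aldehyde dehydrogenase genes 8 passed the filter, and the other 5 (Aldh1a2, Aldh1a3, Aldh1l2, Aldh3a1 and Aldh3b2) averaged no more than 0.363 TPM. By diet label 2 of the 8 were called at each stage, all higher in ethanol-labelled livers, beside 17.3%, 14.3% and 8.82% of all genes called higher at peak, early and late resolution. Aldh3b3, a relative of Aldh3b1 and Aldh3b2, had group means of 3.05 ± 0.761 TPM and 3.35 ± 1.55 TPM in male-labelled and female-labelled ethanol libraries at peak, and 0.0309 ± 0.0398 TPM and 0.0983 ± 0.0467 TPM in the controls. Its log2 difference was 2.66 ± 0.31 (SE, adjusted p = 2.8e-08) at peak, 3.38 ± 0.32 (SE, adjusted p = 4.1e-10) at early and 3.10 ± 0.33 (SE, adjusted p = 1.1e-08) at late resolution, on the log2(TPM + 0.5) scale, which understates the change of so low a transcript. The single control-labelled library above 0.165 TPM was late control female 1, at 5.09 TPM. Aldh4a1, the mitochondrial enzyme of proline breakdown, was higher at peak (0.46 ± 0.14, SE, adjusted p = 0.013) and early resolution (0.42 ± 0.15, SE, adjusted p = 0.046), and Aldh3b1 at late resolution (0.73 ± 0.16, SE, adjusted p = 0.002). By sex label at peak 4 were lower in male-labelled livers (Aldh5a1, Aldh6a1, Aldh8a1 and Aldh16a1) and 1, Aldh18a1, was higher, beside 46.7% and 4.26% of all genes.

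**Figure D4:**
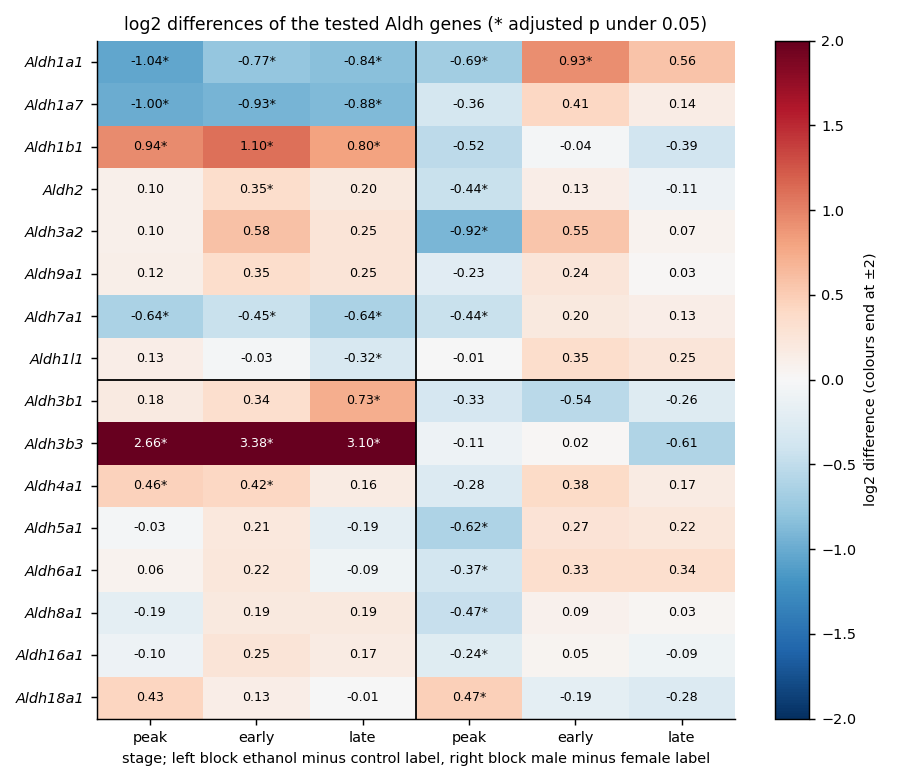
Log2 differences of the 8 members (above the line) and the 8 other tested Aldh genes (below it) by diet label (left 3 columns, ethanol-labelled minus control-labelled) and by sex label (right 3 columns, male-labelled minus female-labelled), with an asterisk for an adjusted p under 0.05 and colours ending at ±2. Aldh3b3 stands out on the left, at 2.66 to 3.38.

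Genes of the pathways the members belong to were counted from lists, beside the 17.3%, 14.3% and 8.82% of all genes called higher and the 9.81%, 2.46% and 3.98% called lower by diet label at peak, early and late resolution. Of 8 tested genes that take ethanol to acetyl-CoA, 3 higher and 4 lower in ethanol-labelled livers at peak, 1 higher and 1 lower at early and 1 higher and 0 lower at late resolution were called, with medians of -0.02, 0.00 and -0.05 beside 0.05, 0.13 and 0.05 for all genes. Adh1, the main alcohol dehydrogenase of liver, rose by 0.54 ± 0.12 (SE) at peak, while Adh4, which also oxidises retinol, fell by 1.09 ± 0.21 (SE). Among 15 tested genes of retinoid metabolism, the pathway of Aldh1a1, 3, 8 and 4 were higher at the 3 stages and none was lower. The share at peak was close to that of all genes, and the medians were 0.22, 0.33 and 0.36. The gene with the smallest p was Rdh16f2, a retinol dehydrogenase relative, at 1.31 ± 0.17 (SE, adjusted p = 1.6e-07) at peak.

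In the lysine, betaine and carnitine list, the pathways of Aldh7a1 and Aldh9a1, 2 higher and 2 lower of 13 tested genes were called at peak, with a median of -0.01. Aadat, which acts on the product of Aldh7a1 in lysine breakdown, fell by 0.49 ± 0.11 (SE), and Crym, a reductase of cyclic imines on the same route, rose by 0.90 ± 0.20 (SE). Of 15 folate genes, the pathway of Aldh1l1, none was called at peak (median -0.01) and 2 were higher at early and 2 at late resolution. Of 9 fatty aldehyde genes, the pathway of Aldh3a2, 1 higher and 1 lower were called at peak (median -0.16), with Phyh, the peroxisomal phytanoyl-CoA hydroxylase, lower by 0.70 ± 0.09 (SE). Other enzymes that clear aldehydes gave 3 higher and 6 lower of 13 at peak (median -0.26), led by Akr1b7, an aldo-keto reductase, which rose by 2.94 ± 0.25 (SE). By sex label at peak the medians of these 6 lists were between -0.48 and -0.29, beside -0.29 for all genes.

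Over the 45 libraries, which share the groups and the deposited scaling, some pairs of members varied closely together. Pearson correlations of log2(TPM + 0.5) were 0.831 between Aldh1a1 and Aldh1a7, 0.871 between Aldh1a1 and Aldh7a1, 0.879 between Aldh1a7 and Aldh7a1 and 0.846 between Aldh3a2 and Aldh9a1. After the group means were removed these were 0.846, 0.772, 0.801 and 0.868. Within groups, however, every pair of members correlated positively, from 0.288 (Aldh2 and Aldh1l1) upwards. Other pairs came close to those named, such as Aldh1a1 and Aldh3a2, at 0.342 across libraries and 0.733 within groups. Aldh1b1 had values of -0.194 with Aldh1a1, -0.189 with Aldh1a7 and -0.23 with Aldh7a1 across libraries, but 0.723, 0.739 and 0.598 within groups. So libraries of 1 group that were high in Aldh1b1 also tended to be high in the transcripts that went the other way with the diet label. Among 6194 genes averaging 5 TPM or more, those most like Aldh1a1 were Chpt1 (0.879), Aldh7a1 and Ces2c (0.845), and those most like Aldh1a7 were Abcg2 (0.891), Chpt1 (0.88) and Aldh7a1. The nearest to Aldh7a1 was Ugt2b1 (0.938), to Aldh1b1 Dhrs7 (0.887), to Aldh2 Fth1 (0.919), to Aldh3a2 Tmbim6 (0.934), to Aldh9a1 Decr2 (0.908) and to Aldh1l1 Gnmt (0.706), which like Aldh1l1 belongs to one-carbon metabolism.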

How the data were processed

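The authors deposited 1 table of TPM values (transcript abundance scaled by length and library total) for 45 liver libraries, with columns summing to between 999999 and 1000001. Per the labels' protocols, RNA from liver lysate was made into stranded mRNA libraries, and the submitters' processing notes name the build mm10. The sources used here do not give the aligner, counter or annotation. TPM holds no read counts, so depth per library is unknown and no counting interval can be given. Left out were 26 rows whose names had been turned into dates (0.044% of TPM). The 11244 genes averaging 0.5 TPM or more were analysed as log2(TPM + 0.5) with limma 3.58.1 (R 4.3.3), a mean-variance trend, 12 group means and Benjamini-Hochberg adjustment over all tested genes, and were called under 0.05. The code was tested on simulated data. Diet-label differences are ethanol minus control averaged over sex labels, and sex-label differences male minus female averaged over diet labels. Fold changes on this scale understate those of low genes. The members and gene lists were chosen with earlier results of these data known. All 8 members are named, and up to 2 genes with the smallest p from each other list. Alternatives changed the pseudocount, filter, scaling, trend, block, libraries and threshold.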

Additional observations from a re-analysis of the deposited data

Results flagged for a closer look

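Among 72 groups of 4 libraries tested over the members, 3 had a single library far from the others, and chance flags about 1 in 20 groups. Aldh1l1 was 597 TPM in late control female 1, against 771 to 803 TPM in the other 3 libraries of that group. This is also the control-labelled library with female sex-chromosome transcripts. Aldh9a1 was 119.8 TPM in early ethanol male 2, against 172 to 179.6 TPM in the other 3, and the same library had the lowest Aldh1a1, Aldh1a7, Aldh1b1, Aldh2, Aldh3a2, Aldh7a1 and Aldh1l1 of its group. Aldh1b1 was 44.7 TPM in early control female 4, against 30.8 to 32.9 TPM in the other 3.

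The sex-label difference (male-labelled minus female-labelled) differed between stages for 5 members at early resolution, by test of the change itself. From peak to early resolution the change was 1.62 for Aldh1a1, 0.77 for Aldh1a7, 0.57 for Aldh2, 1.47 for Aldh3a2 and 0.64 for Aldh7a1. From peak to late resolution it was 1.26 for Aldh1a1, 1.00 for Aldh3a2 and 0.57 for Aldh7a1. The median of all genes changed by 0.32 and 0.34.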

How the results depend on the processing

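By diet label at peak 4 members were called whichever single library was left out, beside 2572 to 3275 of 11244 genes. The number of members called by diet label at early resolution was 2 without the 22 libraries that go against their sex label, beside 6.36% of genes. At late resolution it was 3 at a false discovery rate of 0.01, in a fit to that stage alone, with no filter, with the replicate block and without those 22 libraries. All genes called there numbered 636, 727, 1584, 580 and 1120, in that order. By sex label it was 7 at peak in a fit to that stage alone (6029 of 11244 genes) and 2 with median-of-ratios scaling (3554 genes). It was 0 at early resolution in a fit to that stage alone (9 genes), and 1 at late resolution with median-of-ratios or quantile scaling (1074 and 1213 genes). For the change of the sex-label difference at early resolution it was 2 with median-of-ratios (1850 genes) and 3 with quantile scaling (1878 genes). At late resolution it was 1 with median-of-ratios scaling (2270 genes). For the change of the diet-label difference at late resolution it was 1 with quantile scaling (1290 genes). Leaving out 1 library at a time gave 3 to 5 calls by diet label at late resolution, 1 to 2 and 0 to 2 by sex label at early and late resolution, and 0 to 1 for the late change of the diet-label difference. Over all genes these fits called 966 to 2098, 16 to 206, 25 to 1853 and 95 to 1064, in that order. The cause of these shifts was not tested.

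Other settings gave 728 values, of called and uncalled members, for the diet-label and sex-label differences at each stage and the change of the sex-label difference. Of these 17 reversed, all of members not called on the deposited scale. With median-of-ratios scaling these were the late change of the sex-label difference of Aldh1b1 (-0.28), Aldh1l1 (-0.15), Aldh2 (-0.073) and Aldh9a1 (-0.15), the early change of Aldh1l1 (-0.019), and the sex-label difference of Aldh1l1 (0.34) and Aldh9a1 (0.12) at peak and of Aldh9a1 at late resolution (-0.0295). With quantile scaling they were Aldh1b1 (-0.14) for the late change and Aldh1l1 (0.12) and Aldh9a1 (0.0002) by sex label at peak. Without Mup genes they were the peak diet-label differences of Aldh1l1 (-0.0008), Aldh2 (-0.037), Aldh3a2 (-0.029) and Aldh9a1 (-0.011) and the peak sex-label difference of Aldh1l1 (0.006). With the replicate block it was the early diet-label difference of Aldh1l1 (0.018). Leaving out single libraries reversed 20 of 1208 values, in the late change of Aldh1b1 (-0.045 to 0.25), the sex-label differences of Aldh1b1 at early (-0.17 to 0.15), Aldh1l1 at peak (-0.0285 to 0.0206) and Aldh3a2 (-0.11 to 0.20) and Aldh9a1 (-0.089 to 0.09) at late resolution, and the early diet-label difference of Aldh1l1 (-0.10 to 0.018).

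Without the 22 libraries the values for the change of the diet-label difference, not among these cases, were negative for members with a positive change, such as Aldh1a1 (-1.36 early, -0.89 late), Aldh2 (-0.31, -0.30) and Aldh3a2 (-0.99, -0.92). That subset set female-labelled ethanol against male-labelled control libraries, late control female 1 aside, so these values also subtract the change of the sex-label difference.

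Same-numbered libraries correlated best with each other in some groups only, which does not show that the numbers mark pairs. All 4 diet pairs of peak female-labelled libraries correlated at 0.109 to 0.222, each best with its own number. So did diet pairs 1 and 3 of early male-labelled libraries (0.21 and 0.25), sex pairs 2 and 3 of early ethanol libraries (0.527 and 0.389) and sex pairs 1, 2 and 4 of late control libraries (0.367, 0.211 and 0.246). The 4 peak diet-label calls kept their direction and call with the block. Over all groups, same-numbered deviations correlated between -0.371 and 0.25 over 21 diet pairs and between -0.433 and 0.527 over 22 sex pairs. The medians were near 0, at -0.053 and -0.023, and 6 and 7 libraries correlated best with their own number. With the block, 4, 7 and 3 members were called by diet label and 6, 1 and 0 by sex label at peak, early and late resolution. Beside these, 2889, 1927 and 580 of 11244 genes were called by diet label and 5431, 26 and 128 by sex label. TPM without counts limits what can be said of low transcripts such as Aldh3b3.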
